A study of Homo sapiens with 6 samples.

Results

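The 10 genes of glutathione synthesis and ferroptosis defense GCLC, GCLM, GSS, GSR, GPX1, GPX4, GPX8, GSTP1, AIFM2 and ACSL4 were taken from the 60668 genes of an RNA-seq table of MiaPaCa-2 cells. They were chosen by symbol, through the Ensembl identifier without its version, and each matched 1 row. MiaPaCa-2 is an established human pancreatic cancer (PDAC) cell line from ATCC, and no allele or further agent is given for either condition. The study asked how PDAC cells keep their redox balance when glucose is scarce. For this, 3 libraries came from cells under low glucose (2.5 mM, 48 h) and 3 from control cells (25 mM). The treatment field of the labels repeats the low-glucose text for all 6 samples, while the titles, the treatment characteristic and the series' design separate the controls. All are bulk libraries of 1 line, so fewer cells with a transcript and less transcript per cell cannot be told apart.

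Glutathione is a tripeptide of glutamate, cysteine and glycine that cells hold at high concentration as their main soluble thiol. Glutamate-cysteine ligase, made of the catalytic subunit GCLC and the modifier subunit GCLM, carries out the rate-limiting step, and glutathione synthetase (GSS) adds glycine. Glutathione peroxidases spend glutathione to remove peroxides, and glutathione reductase (GSR) restores it with NADPH. Ferroptosis is an iron-dependent form of cell death driven by peroxidation of polyunsaturated phospholipids. GPX4 reduces these lipid peroxides, AIFM2 (also called FSP1) opposes them through reduced ubiquinone, and ACSL4 makes cells more susceptible by activating the polyunsaturated fatty acids that enter phospholipids.

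Promoters are shown for GCLC and GCLM, because these subunits of a single enzyme differed in response, and for GSTP1 and AIFM2, the other members with a match to the antioxidant response element, the site that NRF2 is known to bind. RefSeq start-site windows (GRCh38.p14, 250 bases before to 50 after the start) were at hand for 8 of the 10 members, with GSS and GSR the members without an entry. The core searched was TGACNNNGC on both strands, and it is in capitals below, read as its reverse complement where it lies on the opposite strand. It occurred in GCLM, GSTP1 and AIFM2, against 13.3% of 35116 windows. GCLC (minus strand, chr6:53545052-53545351) held no match in this window. The annotated GCLC gene starts farther upstream, at 53616970, and sequence outside the windows was not searched. Whether GCLC has the element elsewhere is therefore not shown. In GCLM (minus strand, chr1:93909381-93909680) the core lay at positions -34 to -26 on the strand opposite the gene, in GSTP1 (plus strand, chr11:67583562-67583861) at -66 to -58 on the gene's own strand, and in AIFM2 (minus strand, chr10:70132776-70133075) at -22 to -14 on the opposite strand.
GCLC: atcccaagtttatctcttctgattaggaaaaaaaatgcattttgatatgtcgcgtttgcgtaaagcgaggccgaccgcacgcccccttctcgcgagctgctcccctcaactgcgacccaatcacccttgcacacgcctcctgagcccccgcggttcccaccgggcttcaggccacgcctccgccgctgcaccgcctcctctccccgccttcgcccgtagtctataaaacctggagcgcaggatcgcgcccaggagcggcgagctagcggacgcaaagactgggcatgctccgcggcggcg
GCLM: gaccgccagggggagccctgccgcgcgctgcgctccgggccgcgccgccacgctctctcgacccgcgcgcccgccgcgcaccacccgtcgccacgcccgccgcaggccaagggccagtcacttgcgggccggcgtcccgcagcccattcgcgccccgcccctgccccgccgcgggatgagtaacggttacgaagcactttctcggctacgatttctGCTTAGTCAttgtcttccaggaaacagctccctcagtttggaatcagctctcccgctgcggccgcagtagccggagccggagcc
GSTP1: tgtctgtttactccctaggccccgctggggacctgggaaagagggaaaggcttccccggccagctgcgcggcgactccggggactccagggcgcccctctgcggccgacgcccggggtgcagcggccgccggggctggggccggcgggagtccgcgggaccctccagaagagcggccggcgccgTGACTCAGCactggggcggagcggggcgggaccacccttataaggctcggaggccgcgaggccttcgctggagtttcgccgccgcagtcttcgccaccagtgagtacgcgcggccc
AIFM2: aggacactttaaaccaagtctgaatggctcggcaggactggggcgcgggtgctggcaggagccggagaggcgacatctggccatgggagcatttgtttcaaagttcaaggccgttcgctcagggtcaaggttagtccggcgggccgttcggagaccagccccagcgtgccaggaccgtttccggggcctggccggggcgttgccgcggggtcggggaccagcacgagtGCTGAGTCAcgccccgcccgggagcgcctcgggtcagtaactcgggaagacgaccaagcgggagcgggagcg
A second element, TGATGNAA, to which ATF4 and C/EBP factors are known to bind, does not overlap the first in these windows. It occurred in 3.62% of windows and, among the members, in GPX8 alone, at -189 to -182 on the opposite strand. These are matches of letters and not measured binding.

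The deposited values are normalized counts, which are reads on a gene scaled by the size factor of the library. Throughout, 100% of the values above 0 came out as whole reads, within a tolerance of 0.01 read, and the reads recovered in this way gave totals from 9741183 to 10190154 for control libraries and from 10595408 to 13733477 for low-glucose libraries. The labels name low glucose replicates 1 (10841656 reads) and 2 (10595408 reads). The other 4 columns were assigned because their names form a run of 3 for each condition, so libraries are called here shallowest, middle and deepest within their condition. Every member had 267 to 4384 reads in every library. The control libraries differed among themselves more than the low-glucose libraries did, chi-square values per gene being 4.63 to 18.9 against 1.90 to 2.89, where sampling noise alone gives about 1. Reads on the 3490 protein-coding genes with less than 2000 bases of annotated exon made up 7.02% to 8.04% of control libraries, lowest in the middle one, and 9.60% to 9.93% of low-glucose libraries. Of the cell line's markers, KRT8, KRT18, KRT19 and VIM were abundant, and EPCAM had at most 1 read. These markers moved with the condition, KRT8, KRT18 and KRT19 by -1.01, -0.74 and -0.83 and VIM by 0.42 on the log2 scale (limma adjusted p = 3.26e-06, 4.29e-05, 7.46e-06 and 0.00819), and their part in the results was not tested. Of 10 markers of other cell types, PTPRC, CD3E, PRSS1 and INS had no read, and PECAM1 and ALB had at most 3 reads in any library. CD68, COL1A1 and ACTA2 had 0 to 52 reads per library. CDH5, an endothelial cadherin, fell from 145 to 165 reads per control library to 10 to 16 per low-glucose library. TXNIP, which is known to follow glucose supply, fell by 1.12 on the log2 scale in low glucose (standard error, SE, 0.0795, adjusted p = 2.38e-07 by limma).

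Under low glucose, GCLC, GPX1, GPX4, GPX8 and AIFM2 rose and ACSL4 fell, while GCLM, GSS, GSR and GSTP1 did not pass the test. The test was limma's on log2(value + 1), two-sided, with Benjamini-Hochberg adjustment over all 21101 genes with a mean of at least 1 and a threshold of 0.05. By this rule 6 of 10 members were called, 5 higher and 1 lower, where the rule called 30.9% of all genes tested (14.7% higher and 16.2% lower). With a mean of at least 10 required, which all members had, 6458 of 15235 genes and the same 6 members were called. The median log2 fold change was 0.21 over the members and 0.05 over all genes tested. The libraries of both conditions did not overlap for 7 members, 6 of them higher in low glucose, against 43.9% of all genes. Leaving out 1 library at a time gave 2 to 6 calls, and GCLC and GPX1 were called in all of these fits. The plot of normalized counts by library shows these values, and the plot of fold changes sets each member beside its interval.

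**Figure D1:**
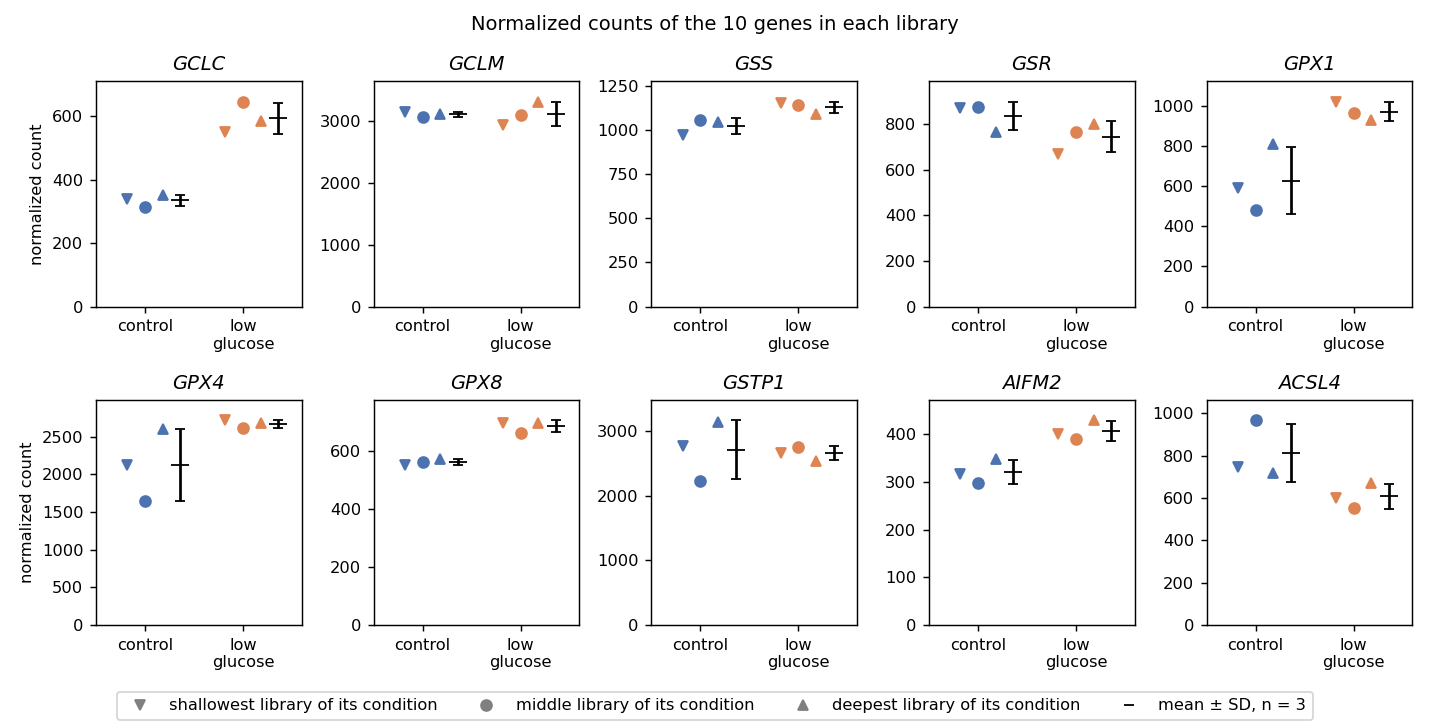
Normalized count (vertical axis, from 0) of each of the 10 genes in the 3 control (blue) and 3 low-glucose (orange) libraries, with the mean and SD (n = 3) beside them; the marker shape gives the library's depth within its condition. GCLC lies between 314 and 351 in control and between 549 and 646 in low glucose, while the control values of GPX1, GPX4 and GSTP1 spread widely, lowest in the middle library.

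**Figure D2:**
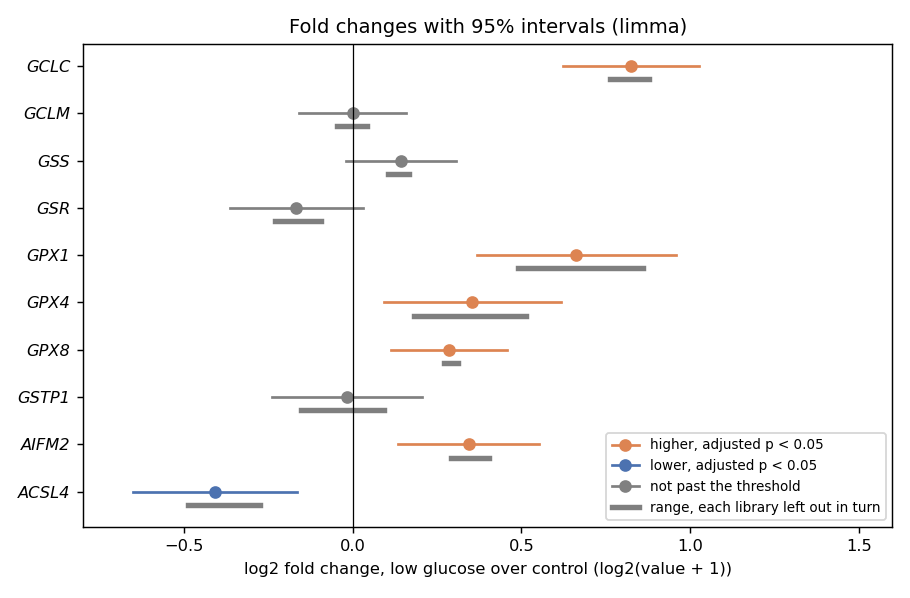
Log2 fold change of low glucose over control for the 10 genes (horizontal axis), with the 95% interval from limma as a thin line coloured by call (orange higher, blue lower, grey not past the threshold) and the range over fits that each left out 1 library as a thick grey line below. GCLC (0.82) and GPX1 (0.66) lie farthest to the right, ACSL4 (-0.41) is the member called lower, and the interval of GCLM (-0.16 to 0.16) is centred on 0.

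Among the synthesis enzymes the catalytic subunit rose and the modifier subunit did not. GCLC (ENSG00000001084.13, chromosome 6 of hg38, 53497341 to 53616970, minus strand) had normalized counts of 339, 314 and 351 in the shallowest, middle and deepest control libraries and of 549, 646 and 586 in low glucose. No control library reached the lowest low-glucose value. The mean rose from 335 ± 18.6 (SD, n = 3) to 594 ± 49.0 (SD, n = 3), a log2 fold change of 0.82 (SE 0.0944, adjusted p = 1.62e-05 by limma). It stayed between 0.76 and 0.91 in the other 17 fits and passed in all of them. GCLC-AS1, an antisense gene that shares 305 bp of exon with GCLC, held 18.9% as many reads and rose by 1.15 (limma adjusted p = 0.000165). The library kit marks strand, but whether the counting used it is not stated, so the share of reads between GCLC and GCLC-AS1 is uncertain. The same limit holds for the other genes named below that share exon with a gene on the other strand.

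GCLM (ENSG00000023909.10, chromosome 1, 93885199 to 93909456, minus strand), which lowers the substrate need and the feedback inhibition of the enzyme, had normalized counts of 3157, 3077 and 3118 in control and 2945, 3096 and 3322 in low glucose. The conditions overlapped, and the control libraries lay within the range of the low-glucose ones. The means were 3117 ± 39.7 (SD, n = 3) and 3121 ± 190 (SD, n = 3). The log2 fold change was 0.00 with a 95% interval of -0.16 to 0.16 and did not pass in limma, so a change as large as that of GCLC lies outside the interval. GSS (ENSG00000100983.12, chromosome 20, 34928432 to 34956027, minus strand) had 969, 1056 and 1042 in control and 1152, 1140 and 1090 in low glucose. These libraries did not overlap, but the difference of 0.14 (SE 0.0762, adjusted p = 0.178 by limma) did not pass. It passed when libraries were scaled by their total (0.22, adjusted p = 0.0338) or by quantile normalization (0.31, adjusted p = 0.00606).

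The subunits were also compared within libraries. Per kilobase of annotated exon, GCLM exceeded GCLC 14.8-fold, 15.5-fold and 14.1-fold in control and 8.50-fold, 7.60-fold and 8.98-fold in low glucose. The exon length pools all isoforms, 8618 bases for GCLC and 5426 for GCLM. The size of the excess depends on these lengths, while its change between conditions does not. The log2 difference of the GCLM/GCLC ratio was -0.82, which equals the difference between the fold changes of GCLM and GCLC. The conditions did not overlap. The two-sided exact permutation p was 0.1, which 3 libraries against 3 cannot go below, and 0.133 when adjusted over the 4 ratios tested. Leaving out each library in turn kept the difference between -0.88 and -0.76.

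GSR (ENSG00000104687.14, chromosome 8, 30678066 to 30727846, minus strand), which recycles oxidized glutathione, had normalized counts of 872, 875 and 765 in control and 671, 766 and 802 in low glucose. Its conditions overlapped, with a log2 fold change of -0.17 (95% interval -0.36 to 0.03, limma adjusted p = 0.187). Of the fits with other settings, only that with a length trend removed called it (-0.24, adjusted p = 0.0485).

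All 3 peroxidases among the members rose, GPX1 and GPX4 against a wide spread of control libraries. GPX1 (ENSG00000233276.5, chromosome 3, 49357174 to 49358605, minus strand), the abundant cytosolic enzyme for hydrogen peroxide, had normalized counts of 593, 484 and 810 in control and 1024, 966 and 933 in low glucose. The 3 low-glucose libraries lay close together and higher than the controls. The mean rose from 629 ± 166 (SD, n = 3) to 975 ± 46.1 (SD, n = 3), a log2 fold change of 0.66 (SE 0.138, adjusted p = 0.00212 by limma). It ranged from 0.49 to 0.86 with each library left out and was 0.49 without the middle control library (adjusted p = 7.93e-05). Without a trend in the variance model it did not pass (adjusted p = 0.0763). The processed pseudogene GPX1P1 had 27 to 90 reads per library.

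GPX4 (ENSG00000167468.17, chromosome 19, 1103982 to 1106791, plus strand) had normalized counts of 2130, 1642 and 2602 in control and 2717, 2613 and 2680 in low glucose. The deepest control library nearly reached the lowest low-glucose library, but the conditions did not overlap. The mean went from 2125 ± 480 (SD, n = 3) to 2670 ± 52.7 (SD, n = 3), a log2 fold change of 0.35 (SE 0.123, adjusted p = 0.0403 by limma). This call was lost in 8 of the other 17 fits. Without the middle control library the rise was 0.18 (adjusted p = 0.0409), and without the shallowest control library or any 1 of the low-glucose libraries the adjusted p was 0.105 to 0.136.

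The share of reads on short genes moved with GPX1 and GPX4, which have 1432 and 1840 bases of annotated exon. GSTP1, with 1764 bases, was also lowest in the middle control library but did not rise in low glucose (log2 fold change -0.02). With a trend in transcript length removed from each library, GPX1 was still called (0.52, adjusted p = 0.000871) and GPX4 was not (0.21, adjusted p = 0.0790). With a trend in GC content removed, the values were 0.53 (adjusted p = 0.00576) and 0.23 (adjusted p = 0.164). GSTP1 had -0.14 with the length trend removed (limma adjusted p = 0.198) and -0.15 with the GC trend removed (limma adjusted p = 0.292). The part of length or GC content in these changes was not tested.

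GPX8 (ENSG00000164294.14, chromosome 5, 55160167 to 55167297, plus strand), a peroxidase of the endoplasmic reticulum membrane, had normalized counts of 553, 564 and 572 in control and 698, 662 and 699 in low glucose. The conditions were well separated against a narrow spread, with means of 563 ± 9.90 (SD, n = 3) and 687 ± 21.4 (SD, n = 3). The log2 fold change was 0.29 (SE 0.0798, adjusted p = 0.0138 by limma). Its size was stable at 0.27 to 0.31 with each library left out, but the adjusted p was above the threshold without the shallowest control library (0.0548), low glucose replicate 2 (0.0711) or the deepest low-glucose library (0.0656).

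Per kilobase of exon, the ratio of GPX4 to GPX1 was 2.79, 2.64 and 2.50 in control and 2.06, 2.10 and 2.23 in low glucose. The conditions did not overlap, with a log2 difference of -0.31, which equals the difference of the 2 genes' fold changes, and the ratio did not pass the test (exact permutation p = 0.1, two-sided, adjusted 0.133). The ratio of GPX8 to GPX4 overlapped between the conditions, at 0.118, 0.156 and 0.10 in control and 0.117, 0.115 and 0.119 in low glucose (exact permutation p = 0.8, two-sided, adjusted 0.8).

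GSTP1 (ENSG00000084207.17, chromosome 11, 67583742 to 67586656, plus strand), which couples glutathione to electrophiles, had normalized counts of 2778, 2233 and 3143 in control and 2673, 2760 and 2545 in low glucose. The low-glucose libraries lay inside the range of the controls. The log2 fold change was -0.02 (95% interval -0.24 to 0.20, limma adjusted p = 0.918), and its sign turned in 5 of the other 17 fits.

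The 2 members that act on lipid peroxidation outside glutathione moved in opposite directions. AIFM2 (ENSG00000042286.15, chromosome 10, 70098223 to 70132934, minus strand) had normalized counts of 317, 298 and 349 in control and 401, 391 and 430 in low glucose, without overlap. The mean rose from 321 ± 25.8 (SD, n = 3) to 407 ± 20.6 (SD, n = 3), a log2 fold change of 0.34 (SE 0.0974, adjusted p = 0.0149 by limma). The size stayed at 0.29 to 0.40 with each library left out, and the adjusted p was 0.0525 without the shallowest control library, 0.0541 without low glucose replicate 2 and 0.0832 without the deepest low-glucose library. The call was also lost with a GC trend removed (0.26, adjusted p = 0.0520) and without a variance trend (adjusted p = 0.0702). MACROH2A2, on the other strand, shares 986 bp of exon with AIFM2, held 40.3% as many reads and fell by 0.39 (limma adjusted p = 0.0280).

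ACSL4 (ENSG00000068366.20, chromosome X, 109624244 to 109733403, minus strand) had normalized counts of 747, 969 and 719 in control and 601, 551 and 671 in low glucose. All low-glucose libraries were below all control libraries, and the middle control library was the highest. The mean fell from 811 ± 137 (SD, n = 3) to 607 ± 60.0 (SD, n = 3), a log2 fold change of -0.41 (SE 0.113, adjusted p = 0.0131 by limma). Without the middle control library it was -0.27 (adjusted p = 0.0117), and the adjusted p rose above the threshold when low glucose replicate 1 (0.0959) or 2 (0.0593) was left out.

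The ratio of ACSL4 to GPX4 per kilobase, a promoter against a suppressor of lipid peroxidation, was 0.0647, 0.109 and 0.0510 in control and 0.0409, 0.0390 and 0.0462 in low glucose. It was lower in every low-glucose library (log2 difference -0.76, exact permutation p = 0.1, two-sided, adjusted 0.133). This difference equals that between the fold changes of ACSL4 and GPX4. The ratio was highest in the middle control library. Without that library the difference was -0.46. The plot of ratios by library shows all 4.

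**Figure D3:**
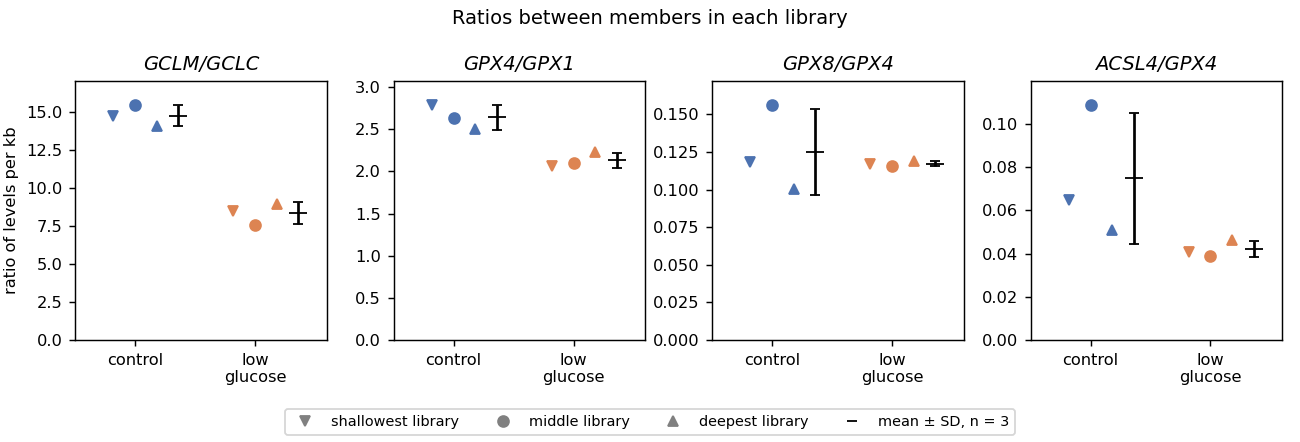
Ratios of normalized counts per kilobase of exon (vertical axes, from 0) in the 3 control (blue) and 3 low-glucose (orange) libraries for GCLM/GCLC, GPX4/GPX1, GPX8/GPX4 and ACSL4/GPX4, with mean and SD (n = 3). GCLM/GCLC lies between 14.1 and 15.5 in control and between 7.60 and 8.98 in low glucose, and GPX8/GPX4 is the ratio whose conditions overlap.

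Levels were ordered by normalized count per kilobase of annotated exon, a length that pools all isoforms and so understates genes with long or alternative exons. In control the order was GSTP1 (1541 ± 260, SD, n = 3), GPX4 (1155 ± 261), GCLM (575 ± 7.32), GPX1 (439 ± 116), GSR (232 ± 17.4), GSS (166 ± 7.59), GPX8 (139 ± 2.45), ACSL4 (81.4 ± 13.7), AIFM2 (62.6 ± 5.03) and GCLC (38.8 ± 2.16). The libraries of GSTP1 and GPX4 overlapped. The other neighbours in control had ranges that did not meet. In low glucose GPX1 (681 ± 32.2, SD, n = 3) stood above GCLM (575 ± 35.0), and ACSL4 came last with 60.9 ± 6.02, below GCLC at 68.9 ± 5.69. GPX4 and GSTP1 again overlapped, as did GSR with GSS and ACSL4 with GCLC, while the ranges of GCLC and AIFM2 (79.3 ± 4.02) did not meet. The plot of levels per length shows this order.

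**Figure D4:**
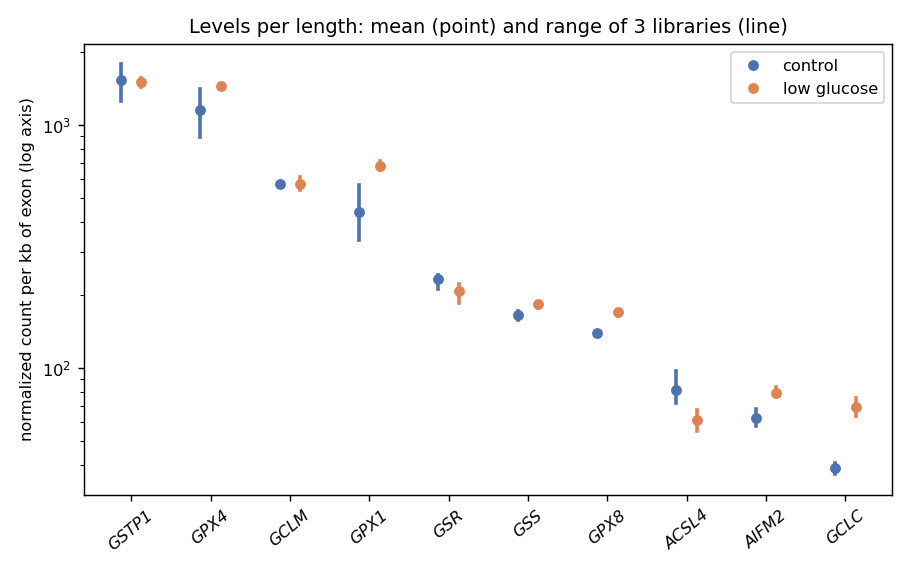
Normalized count per kilobase of annotated exon (log axis) of the 10 genes, ordered by their control mean, with the mean as a point and the range of 3 libraries as a line for control (blue) and low glucose (orange). GSTP1 and GPX4 are the most abundant, and GCLC, the lowest in control, moves from 38.8 to 68.9.

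By Euclidean distance of log2 values over the 6 libraries, each centred on its own mean, the genes nearest to GCLC among 9971 with a mean of at least 10 CPM were TMEM116 (0.0796), N4BP3 (0.0829) and WDR45 (0.0959). Those nearest to GPX4 were PCBD1 (0.0591), SPAG7 (0.0838) and CPNE1 (0.0884). TMEM116, N4BP3 and WDR45 had log2 fold changes of 0.83, 0.77 and 0.83, and PCBD1, SPAG7 and CPNE1 of 0.34, 0.40 and 0.31. The neighbours of GCLC passed in limma, as did SPAG7 (limma adjusted p = 0.0381). PCBD1 (limma adjusted p = 0.0550) and CPNE1 (limma adjusted p = 0.0863) did not pass, and their conditions overlapped. These distances rest on 6 libraries that share 2 conditions. The genes were picked by these same values, so their fold changes and calls are no separate result.

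The 147 other genes of these pathways, in 8 lists, were set beside the members. Of 122 tested, 29 rose and 20 fell, and 73 did not pass. This share called, 40.2%, stands beside 30.9% of all genes tested. With a mean of at least 10 required, 6458 of 15235 genes were called, so the share is not read as an excess.

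Cystine and cysteine supply showed rises and no falls. Of 16 genes tested, 9 rose and 7 did not pass, with a median log2 fold change of 0.60, against 0.05 for all genes. SLC7A11, the cystine carrier of system xc-, had normalized counts of 314, 315 and 250 in control and 696, 794 and 682 in low glucose (log2 fold change 1.31, SE 0.108, adjusted p = 8.58e-07 by limma). All its low-glucose libraries exceeded all controls. SLC7A11-AS1, antisense to it over 865 bp with 11.2% as many reads, rose by 1.43, and the share of reads between both is uncertain. SLC3A2, the partner chain of SLC7A11, rose by 0.85 (limma adjusted p = 2.10e-06). CTH, which makes cysteine from cystathionine, rose by 1.87 (limma adjusted p = 1.51e-08). CHAC1, which breaks down glutathione, had the largest rise of the list, from 143 ± 15.5 (SD, n = 3) to 633 ± 49.8 (SD, n = 3), by 2.14 (limma adjusted p = 1.42e-08).

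Of 10 tested genes of glutathione transport, 2 rose, 1 fell and 7 did not pass (median -0.02). ABCC2, an exporter of glutathione conjugates, rose by 0.62 (limma adjusted p = 2.64e-05), and LANCL1, a glutathione-binding protein, fell by 0.27 (limma adjusted p = 0.0373), a call lost in 9 of the other 17 fits. Besides the members, other glutathione peroxidases were scarce. GPX2 had at most 3 reads and GPX7 at most 1, both below the filter. GPX3 had 5 to 11 reads per library and a log2 fold change of -0.37 (limma adjusted p = 0.577).

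Of 17 tested glutathione transferases other than GSTP1, 5 rose, none fell and 12 did not pass (median 0.40). MGST3, a microsomal transferase, rose by 0.85 (limma adjusted p = 0.00707) from control values of 293, 158 and 370 to 454, 472 and 469. GSTK1 rose by 0.81 (limma adjusted p = 0.00012) from 563, 465 and 699 to 997, 980 and 1020. Both were lowest in the middle control library, as GPX1 and GPX4 were. Without that library MGST3 had a log2 fold change of 0.50 (limma adjusted p = 0.000161). It did not pass with DESeq2 (0.77, adjusted p = 0.0736) or without a variance trend (adjusted p = 0.124). Of the 11 glutaredoxins, glyoxalases and related genes, 2 rose and 3 fell (median 0.21). GLRX5, a mitochondrial glutaredoxin of iron-sulfur cluster assembly, fell by 0.54 (limma adjusted p = 0.000895), and PTGES3, a cochaperone also known as p23, by 0.50 (limma adjusted p = 0.000134). HAGHL rose by 0.69 (limma adjusted p = 0.00122) and shares 1744 bp of exon with CIAO3 on the other strand.

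GPX1 and GPX4 are selenoproteins, with a selenocysteine that the synthesis machinery inserts at UGA codons. Of the 13 genes listed under selenoprotein synthesis, 2 rose, 2 fell and 9 did not pass (median 0.04). The list does not separate genes by the direction of their role in this synthesis. SEPHS2, which makes the selenium donor, rose by 0.49 (limma adjusted p = 0.000214), and SARS1, the seryl-tRNA synthetase, by 0.75 (limma adjusted p = 2.58e-06). EEFSEC, the elongation factor for selenocysteine, fell by 0.40 (limma adjusted p = 0.00514), and EIF4A3 by 0.74 (limma adjusted p = 7.58e-06). EEFSEC shares 343 bp of exon with the more abundant RUVBL1 on the other strand.

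Of 32 tested genes listed under other ferroptosis defense, 4 rose, 9 fell and 19 did not pass (median -0.08). The list does not separate genes by the direction of their role. DHCR7, a gene of sterol synthesis, is among those that fell (-0.35, limma adjusted p = 0.0166). GCH1, the first enzyme of tetrahydrobiopterin synthesis, rose by 0.72 (limma adjusted p = 0.00314) and PLA2G6 by 0.77 (limma adjusted p = 0.00087), the latter with 326 bp of exon shared with MAFF. NQO1, a quinone reductase and NRF2 target, rose by 0.22 (limma adjusted p = 0.0379), a call lost in 8 of the other 17 fits. SCD, which makes monounsaturated fatty acids, fell by 0.74 (limma adjusted p = 0.000103). DHODH, which reduces ubiquinone in mitochondria, had a log2 fold change of -0.01 (limma adjusted p = 0.964).

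Of 22 tested genes of lipid peroxidation and ferroptosis promotion, 5 rose, 5 fell and 12 did not pass (median -0.09). LPCAT3, which places the fatty acids that ACSL4 activates into phospholipids, had normalized counts of 636, 736 and 614 in control and 438, 437 and 423 in low glucose. It fell by 0.61 (SE 0.0912, adjusted p = 0.000163 by limma), and EMG1, which shares 3096 bp of exon on the other strand with 258% as many reads, fell by 0.28. ACSL1, another acyl-CoA synthetase, fell by 0.47 (limma adjusted p = 0.00059). SAT1, the spermidine acetyltransferase, rose by 1.36 (limma adjusted p = 8.58e-07) and FADS1, a desaturase of polyunsaturated fatty acids, by 0.80 (limma adjusted p = 1.39e-05). The plot of pathway lists shows the tested genes of all these lists but that of other peroxidases.

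**Figure D5:**
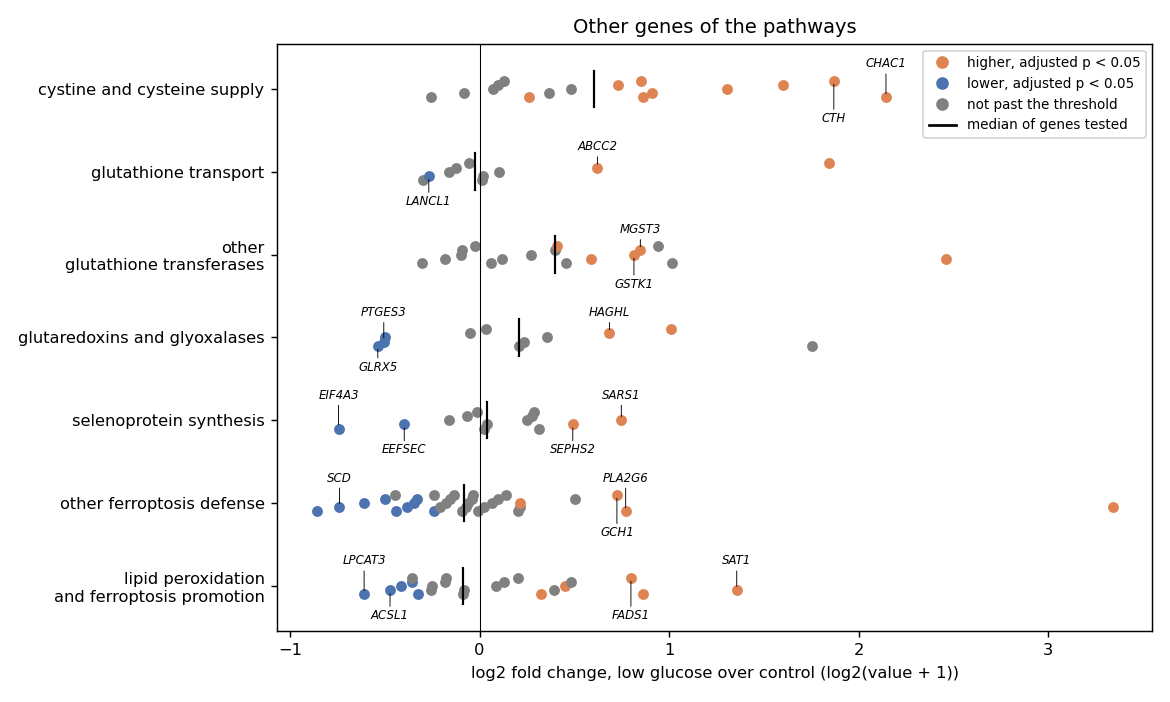
Log2 fold change of low glucose over control (horizontal axis) for the tested genes of 7 lists, coloured by their call in limma (orange higher, blue lower, grey not past the threshold), with the list's median as a vertical bar; the list of other peroxidases, with 1 gene tested, is left out. The cystine and cysteine list holds 9 higher and 0 lower genes, and that of other ferroptosis defense 4 higher and 9 lower.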

How the data were processed

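The data were 1 table of 6 RNA-seq libraries. According to the methods and the submitters' processing notes, reads were trimmed with Trim Galore, mapped to hg38 with STAR (2.7.0e) and compared with DESeq2. The library kit was strand-specific. RSEM is listed among the software without its role, and the strand setting and annotation are not given in the sources used here. The authors deposited a signal per gene, normalized counts made by dividing counts by 1 size factor for each library, from which whole reads were recovered. Identifiers were named with Gencode v44 (99.4% matched), which also gave coordinates on hg38 and exon lengths.

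Log2(value + 1) was tested with limma 3.58.1 (lmFit, eBayes with trend) in R 4.3.3, keeping genes whose mean was 1 or more. Ratios between members were tested with exact permutation tests in scipy 1.17.1. The scripts were tested on simulated data. Alternatives were scaling by library size, TMM or quantiles, other filters (none, or a mean of at least 10), a pseudocount of 0.1, no variance trend, DESeq2 1.42.0 and edgeR 4.0.16 on recovered reads, each library left out, and, added after seeing the data, removal of a length or GC trend (loess, span 0.3, fitted where the mean was 10 or more). The limit of 2000 bases for short genes was also set after seeing the data.

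The members and lists were chosen with earlier results of these data known. Named besides the members were 10 set genes and, per list, the 2 largest rises and falls past the threshold with at least 10 CPM, of which 1 gene is not reported here. Each condition has 3 libraries called independent biological replicates by the design. The limma p-values rest on the spread between these, moderated by the variance trend toward that of genes of like level. They are therefore not a measure of each gene's own spread alone, and without that trend 1 member was called.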

Additional observations from a re-analysis of the deposited data

How the results depend on the processing

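No paired analysis was possible because the control columns and 1 low-glucose column carry no replicate number. The number of members called was 6, and 5 to 7 with other scalings, filters, pseudocounts, DESeq2 or edgeR. It was 1, GCLC alone, without a variance trend, 6 with a length trend and 4 with a GC trend removed, and 2 to 6 with 1 library left out, the fewest without low glucose replicate 2 (2) and 3 without the shallowest control or the deepest low-glucose library. Of 170 refits of single members, 138 kept direction and side of the threshold, 21 lost and 3 gained a call, and 8 turned sign, none past the threshold. The last were GCLM without the middle control library (-0.0092) or the deepest low-glucose library (-0.046) and with a length trend removed (-0.018), and GSTP1 with library size (0.063), with quantile normalization (0.15), and without the shallowest control (0.0048), the deepest control (0.094) or the deepest low-glucose library (0.013). With 1 library left out, GCLM ranged from -0.046 to 0.041 and GSTP1 from -0.15 to 0.094. The log2 difference of GPX8/GPX4, -0.07, was 0.11 without the middle control library and -0.22 to 0.11 over the libraries left out. DHODH turned to 0.072 with library size, 0.0043 with TMM, 0.0073 with edgeR, and to 0.014, 0.056, 0.0080 and 0.040 without the middle control, deepest control, middle low-glucose and deepest low-glucose library (range -0.098 to 0.056). The number of pathway genes called, 49, was 35 without a variance trend and 39 to 58 with 1 library left out. Scaling by library size moved the split over all genes to 3935 higher and 2647 lower, from 3111 and 3417, and removal of a length or GC trend to 2848 and 4248 or 2657 and 4027; no variance trend gave 4090 calls in all, against 6528. With 3 libraries a condition, the exact permutation tests of ratios could not fall below p = 0.1. The cause of these changes was not tested.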

Other observations

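GPX1 and GPX4 are 2 of the 25 human selenoproteins, a list chosen after their values had been seen and therefore only counted. Of the 18 other selenoprotein genes tested, 5 rose, 3 fell and 10 did not pass in limma, with a median log2 fold change of -0.14, against 0.05 for all genes. The share called was 44.4%, beside 30.9% of all genes tested (14.7% higher and 16.2% lower). With a mean of at least 10 required, 6458 of 15235 genes were called, so this share is not read as an excess either. SELENOS and SELENOK, which act in degradation at the endoplasmic reticulum, rose by 0.92 (limma adjusted p = 2.4e-05) and 0.80 (limma adjusted p = 0.00516). SELENOM rose by 0.64 (limma adjusted p = 0.0133), SELENOH by 0.72 (limma adjusted p = 0.00869) and SEPHS2 by 0.49 (limma adjusted p = 0.000214). SELENOS, SELENOK, SELENOM and SELENOH were each lowest in the middle control library, the conditions overlapped for SELENOH (control up to 398.0, low glucose from 397.8), and these genes were not refitted without that library. SELENOO fell by 0.52 (limma adjusted p = 0.000747), SELENOT by 0.47 (limma adjusted p = 0.000347) and SELENOI by 0.45 (limma adjusted p = 0.00249). TXNRD1, the thioredoxin reductase and the most abundant of the list, had normalized counts of 10218 ± 417 (SD, n = 3) in control and 9970 ± 227 (SD, n = 3) in low glucose, a log2 fold change of -0.03 (limma adjusted p = 0.772).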
